A study of Mus musculus with 3 samples.

Results

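The genes described here encode ligands that tumor cells and antigen presenting cells show to lymphocytes and macrophages and that set the strength of an immune response. They were taken by symbol, as Cd274, Pdcd1lg2, Cd80, Cd86, Cd276, Lgals9, Pvr, Tnfrsf14 and Cd47, and all 9 were found among the 24402 gene symbols of the deposited tables. Of these, 6 are called measured below because their FPKM reached 1 somewhere, and 3 (Pdcd1lg2, Cd80 and Cd86) stayed under it.

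Immune checkpoints work through pairs of a ligand and a receptor. A ligand on the target cell engages a receptor on a T cell, NK cell or macrophage and dampens activation, killing or engulfment. Several ligands of this kind are known to be induced in tumor cells by interferons released from activated lymphocytes, and others are carried by tumor cells at rest.

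RNA was read from cancer stem cell spheroids (CSCsp) of 4T1, a mouse triple negative breast cancer line of Balb c/J origin, after 7 days of growth in ultralow attachment plates and collection on a 40 μm strainer. The library labelled N held CSCsp that had met no splenocytes. The library labelled P held CSCsp co-cultured with tumor antigen primed splenocytes, taken from female Balb/c mice 28 days after injection of 4T1 cells at 8 weeks of age. The library labelled R held CSCsp co-cultured with such splenocytes after reinforced activation by anti-CD3/CD28 beads with IL2. Exposure lasted 2 days, splenocytes were then strained off, and equal amounts of RNA from independent experiments were combined into 1 library per condition. Each condition was therefore 1 pooled library of a single cell line, and no difference between libraries has a replicate check, an SD or a p-value. Intervals given below are exact 95% intervals (Poisson for an FPKM, Clopper-Pearson for a ratio) and cover counting error only. Values are FPKM, the fragments on a gene scaled to the length of the transcript and to all fragments aligned. R/N, R/P and P/N stand for the ratio of the FPKM in the first library to that in the second.

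The libraries labelled N and P may have been exchanged. The library labelled N was deposited under a name taken from the saline used to hold primed splenocytes, and the one labelled P under a name that means no treatment. The condition columns of the study's own expression table also lie the other way round for most of its genes. Libraries are named by their labels here, and R is compared with both of the others, since a value that lies apart from both does so whichever of them is N. The libraries held about 17894139, 17887652 and 19178982 fragments (N, P and R in this order, here and below). Epithelial tumor cell markers were high in each, with a summed FPKM of 2607, 2297 and 1992, and 11 of 12 at an FPKM of 1 or more. Of 73 leukocyte markers, 19, 10 and 20 reached an FPKM of 1. By this count P, not N, was the library lowest in leukocyte RNA. In pooled RNA of this kind a change in the share of a cell type cannot be told apart from a change in RNA per cell.

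Checkpoint ligands that were measured were all highest in the library labelled R. Of the 6, 3 (Cd274, Lgals9 and Tnfrsf14) were at least 2-fold higher in R than in N, and the same 3 were at least 2-fold higher in R than in P. None was at least 2-fold lower. The background is the share of all measured genes that passed the same fold. For R/N it was 4.97% of 11203 genes in either direction (3.09% higher and 1.88% lower), and for R/P 5.85% of 11212 (4.16% higher and 1.69% lower). Of 11323 genes, 2.69% lay at least 2-fold above both other libraries in R and 1.04% at least 2-fold below both, and 46.7% lay above both by any amount. The median log2 ratio of the 6 ligands was 0.78 for R/N and 0.86 for R/P, beside 0.077 and 0.029 over all genes. For P/N none of the 6 was at least 2-fold apart in either direction, where 2.07% of 11139 genes were (0.521% higher and 1.55% lower). The median of the ligands was -0.17 for P/N and that of all genes 0.033.

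**Figure D1:**
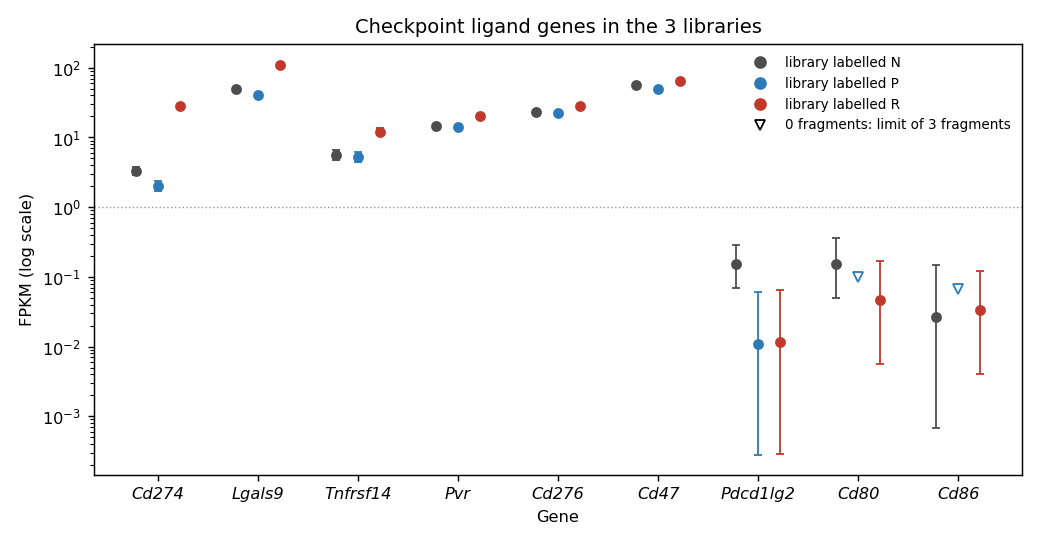
FPKM on a log axis (vertical) of the 9 checkpoint ligand genes (horizontal) in each library (colours, by label, 1 library a condition). Points give sums over transcripts, bars exact 95% Poisson intervals for counting error, open triangles the limit of 3 fragments where no fragment was found, and the dotted line an FPKM of 1; Cd274 reaches 28.0 in R beside 3.27 and 2.02, and Pdcd1lg2, Cd80 and Cd86 lie under 1 throughout.

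**Figure D2:**
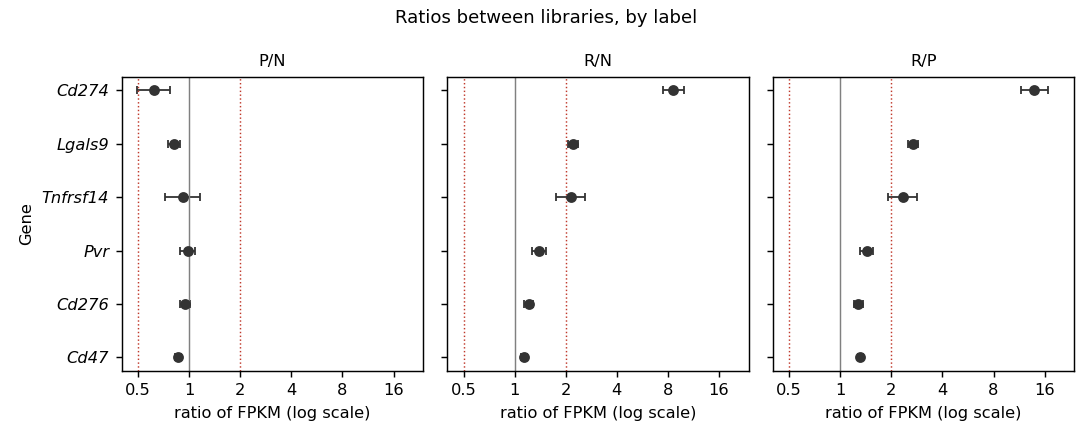
Ratio of FPKM between libraries (horizontal, log axis) for the 6 measured ligand genes (vertical), as P/N, R/N and R/P by the labels. Points are ratios, bars exact 95% Clopper-Pearson intervals for counting error, the solid line a ratio of 1 and dotted lines 2-fold; Cd274 lies at 8.56 for R/N and 13.9 for R/P, and Cd276 and Cd47 lie within 2-fold in every panel.

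Among the ligands of PD-1, the inhibitory receptor of activated T cells, Cd274 was the gene furthest apart and Pdcd1lg2 was nearly absent. Cd274 encodes PD-L1 (chromosome 19, 29367438 to 29388094 in GRCm38, plus strand). An FPKM of 3.27 was found in the library labelled N (2.85 to 3.74), of 2.02 in the library labelled P (1.69 to 2.40) and of 28.0 in the library labelled R (26.8 to 29.3), from 213, 132 and 1954 fragments. The library labelled R was high and stood clear of both others by far more than counting error. The ratio was 8.56 for R/N (7.43 to 9.91) and 13.9 for R/P (11.6 to 16.7), or 3.06 and 3.73 on the log2 scale. Ranked from the highest ratio down, Cd274 was number 54 of 11203 genes for R/N and number 62 of 11212 for R/P. Between the other libraries P lay below N by its label, with a ratio of 0.618 (0.494 to 0.771). With N and P exchanged this ratio reads 1.62 (1.30 to 2.03) in the other direction.

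All of the FPKM of Cd274 lay on the single RefSeq transcript NM_021893, and the difference ran along its whole length. Mean coverage per base over its 7 exons was 7.89 to 33.7 in the library labelled N, 7.28 to 23.1 in the library labelled P and 110.2 to 315.03 in the library labelled R. Every exon was thus more deeply covered in R, by 7.64 to 14.0 times over N and by 12.7 to 26.8 times over P. The exons of N and P did not part in this way: their ratio ran from 0.310 to 1.06, and exon 2 was covered 14.9-fold and 15.8-fold. Plgrkt, whose locus in these files ends 124 bases before the start of Cd274, lay at an FPKM of 7.94, 7.60 and 11.5 (R/N 1.45).

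**Figure D3:**
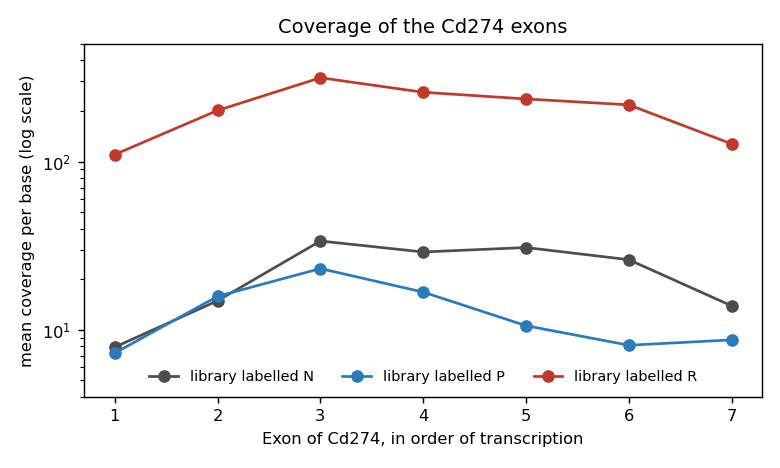
Mean coverage per base, not scaled to depth, on a log axis (vertical) of the 7 exons of Cd274 in the 3 libraries, named by their labels. Exons stand in the order of transcription (horizontal). Each point is 1 exon in 1 library, with no replicate; the library labelled R lies between 110.2 and 315.03, above both others at each exon.

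Pdcd1lg2 encodes PD-L2, the other ligand of PD-1, which dendritic cells and macrophages carry. It begins 22.8 kilobases after the end of Cd274, on the same strand (29410919 to 29472927). Its FPKM was 0.153, 0.0109 and 0.0115, from 9, 1 and 1 fragments. The neighbour of the gene that stood highest apart was thus at or under the limit of 3 fragments (FPKM of 0.0491 and 0.0458) in the libraries labelled P and R, and above it only in the library labelled N. There the coverage lay on exons 4 to 6, and exons 1 to 3 had none in any library. Pdcd1, the receptor of both ligands, had an FPKM of 0.109, 0.0452 and 0.432.

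The ligands of CD28 and CTLA-4, Cd80 and Cd86, were close to the limit of detection. These B7 molecules give T cells their costimulatory signal through CD28 or an inhibitory one through CTLA-4, and mature antigen presenting cells carry them. Cd80 (chromosome 16, 38458933 to 38486932) had an FPKM of 0.153, 0 and 0.0471, from 5, 0 and 2 fragments, where 3 fragments stand for 0.0986, 0.0987 and 0.0920. Cd86 (chromosome 16, 36603869 to 36666077) had an FPKM of 0.0265, 0 and 0.0338, from 1, 0 and 2 fragments, where 3 fragments stand for 0.0660, 0.0661 and 0.0616. With so few fragments a difference was not detectable at this depth for either gene.

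Of these 3 genes Cd80 and Pdcd1lg2 had most of their few fragments in the library labelled N, with no difference detectable for Cd80. Markers of the cells that carry them did not share a common order across the libraries. Of 12 dendritic cell markers 3 reached an FPKM of 1 in each library (Ly75, Batf3 and Zbtb46). Clec9a, Siglech and Cd209a were at 0 in all libraries, while Ccr7 was at 0.711, 0.346 and 0.426 and Cd83 at 0.0422, 0 and 0.221. Itgax, which encodes CD11c and is known from dendritic cells and macrophages, was at 0.641, 0.0109 and 0.0386, from 46, 1 and 3 fragments, and so was highest in N. The summed FPKM of the list was 12.03, 10.03 and 22.42, led by Ly75 at 6.58, 5.33 and 15.8. The summed FPKM of 14 macrophage and monocyte markers was 73.9, 34.7 and 88.6. Cd68 was at 21.4, 18.0 and 19.2. Lyz2 was at 28.9, 0.313 and 6.51, highest in the library labelled N, and Mpeg1 at 0.697, 0.227 and 24.5, highest in the library labelled R. Ly6c2, a monocyte marker that shares its locus with another symbol, was likewise highest in R, at 2.06, 1.03 and 19.4 (R/N 9.41 and R/P 18.9). Adgre1, which defines mouse macrophages, was under 0.05 in each library. B cell markers summed to 1.06, 0.424 and 1.76 over 8 genes. The part of these cells in the values of Cd80, Cd86 and Pdcd1lg2 was not tested.

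Cd276 encodes B7-H3, a B7 molecule that many epithelial tumors carry and whose receptor is not settled. It was abundant and lay within 2-fold across libraries. Its FPKM was 23.4 (22.3 to 24.5), 22.1 (21.1 to 23.2) and 28.2 (27.1 to 29.4). The library labelled R was the highest, with ratios of 1.21 for R/N (1.13 to 1.28) and 1.28 for R/P (1.20 to 1.36), larger than counting error and far under 2-fold. N and P were within counting error of each other, with a ratio of 0.945 (0.883 to 1.01).

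The value of Cd276 rested on a transcript that the RefSeq model of the deposited annotation lacks. The RefSeq transcript NM_133983 (chromosome 9, 58524300 to 58540940, minus strand) had an FPKM of 0.207, 0.154 and 0.2496 only. The transcript assembled from the reads, which runs from 58524277 to 58556049, had 23.2, 22.0 and 28.0, or 99.1%, 99.3% and 99.1% of the gene. It adds a first exon far upstream (58555022 to 58556049), covered 40.1-fold, 41.1-fold and 43.4-fold, and has the same introns as Cd276-202 of GENCODE. The RefSeq promoter table on GRCm38.p6 also places the start of Cd276 in that exon, 14093 bases before the start of the model in the files. A reading of RefSeq lines alone would have put Cd276 under an FPKM of 1 in each library. Without scaling to depth, the exons that both transcripts share had 1.17 to 1.53 times the coverage in R/N and 1.28 to 1.55 times in R/P. In the upstream exon these ratios were 1.08 and 1.06.

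Lgals9 encodes galectin-9, a lectin that binds TIM-3 (Havcr2) and other receptors on T cells. It was the most abundant ligand in the library labelled R. Its FPKM was 50.4 (47.7 to 53.1), 41.1 (38.8 to 43.7) and 110.9 (107.1 to 114.8), from 1347, 1099 and 3181 fragments. The ratio was 2.202 for R/N (2.07 to 2.35) and 2.70 for R/P (2.52 to 2.89), number 286 of 11203 and number 299 of 11212 genes. P was below N by the labels, at a ratio of 0.817 (0.754 to 0.885). Havcr2 itself was at an FPKM of 0.510, 0.111 and 0.302.

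Galectin-9 has a linker between its carbohydrate binding domains, and alternative exons change the length of that linker. The files hold 2 RefSeq transcripts of Lgals9 (chromosome 11, 78962979 to 78984924, minus strand) that differ by an exon of 93 bases at 78969714 to 78969806, which keeps the reading frame. It is shown with 24 coding bases of each neighbouring exon in lower case and the alternative exon in capitals (transcript Lgals9-203 of GENCODE, GRCm38), since it is what separates the long from the short form.

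Lgals9 exon: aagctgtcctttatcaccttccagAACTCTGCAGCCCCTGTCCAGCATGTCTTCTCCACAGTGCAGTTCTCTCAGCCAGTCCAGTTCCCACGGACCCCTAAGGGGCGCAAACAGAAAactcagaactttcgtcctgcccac

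The short form, NM_001159301, carried nearly all of the level in each library, with an FPKM of 49.9, 40.9 and 108.2. The long form, NM_010708, had 0.527, 0.287 and 2.77, from 15, 8 and 84 fragments, or 1.05%, 0.696% and 2.49% of the gene. Coverage of the 93 bases, set against the mean of the exons on either side, was 3.33%, 2.51% and 2.55% in the same libraries. The share that StringTie gave to the long form was thus highest in R and the coverage of its own exon was not, so no difference between the forms is read from these values.

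Tnfrsf14 encodes HVEM, a receptor of the TNF family that also acts as a ligand, for BTLA and CD160 on lymphocytes. Its FPKM was 5.69 (4.81 to 6.70), 5.22 (4.40 to 6.16) and 12.2 (10.9 to 13.5), from 146, 141 and 348 fragments. The library labelled R was high and N and P overlapped in their intervals. The ratio was 2.14 for R/N (1.76 to 2.61) and 2.33 for R/P (1.91 to 2.85), so the lower bounds lie under 2-fold, and 0.918 for P/N (0.723 to 1.16). Among the lymphocyte receptors of HVEM, Btla was at 0 in all libraries and Cd160 at 0.0241, 0.0278 and 0.0665.

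For Tnfrsf14 the call for R/N depends on the transcripts counted. The RefSeq transcript NM_178931 (chromosome 4, 154922210 to 154928125, minus strand) alone was at FPKM 1.27, 0.647 and 1.74, which gave 1.37 for R/N and 2.70 for R/P. The rest lay on 2 assembled transcripts, at 0.754, 2.34 and 4.59 for the one with the introns of a GENCODE transcript and at 3.67, 2.24 and 5.83 for the other. Their ends overlap and StringTie shares the reads among them, so the sum is firmer than its parts. Coverage of the 7 exons that all 3 transcripts share was higher in R throughout. Without scaling to depth it was 1.91 to 2.40 times that in N and 2.07 to 3.12 times that in P.

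These transcripts also differ by 3 bases at the acceptor of the last exon (154922325 to 154922327, in capitals), which are coding and keep the frame. They are shown in the GENCODE transcript, on GRCm38, because the assembled transcripts hold them and the RefSeq one does not.

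Tnfrsf14 acceptor: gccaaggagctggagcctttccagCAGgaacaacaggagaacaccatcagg

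Transcripts with the 3 bases had an FPKM of 4.42, 4.58 and 10.4, and the transcript without them 1.27, 0.647 and 1.74.

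Pvr encodes the poliovirus receptor CD155, which binds the inhibitory receptors TIGIT and CD96 and the activating receptor CD226 on T and NK cells. Its FPKM (chromosome 7, 19903578 to 19921143, minus strand) was 14.4 (13.4 to 15.5), 14.1 (13.1 to 15.1) and 20.1 (18.9 to 21.3). The library labelled R was the highest and N and P could not be told apart. The ratio was 1.39 for R/N (1.27 to 1.53), 1.43 for R/P (1.30 to 1.57) and 0.977 for P/N (0.881 to 1.08). All of it lay on the RefSeq transcript NM_027514. Each of its 8 exons was more deeply covered in R. Without scaling to depth the coverage was 1.21 to 1.64 times that in N and 1.25 to 1.67 times that in P.

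Tigit stood apart from the other lymphocyte receptors of the ligands. Its FPKM was 13.2, 3.88 and 17.7, from 356, 113 and 546 fragments. The ratio was 1.34 for R/N (1.17 to 1.54) and 4.57 for R/P (3.73 to 5.65), and P was lowest. T and NK cells are the known carriers of Tigit, and their markers were near 0: 10 T cell markers summed to 0.790, 0.902 and 1.57 and 6 NK cell markers to 0.467, 0.636 and 0.608. Cd8b1, Ncr1 and Klrb1c were at 0 in each library. Cd226 and Cd96, the other receptors of Pvr, were at 0 as well. Of the 10 receptors listed, only Tigit and Sirpa reached an FPKM of 1.

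Cd47 encodes an integrin associated protein that binds SIRPα on macrophages and restrains engulfment. It was the most abundant ligand in the libraries labelled N and P. Its FPKM was 57.3 (55.8 to 58.8), 49.3 (47.9 to 50.7) and 64.8 (63.2 to 66.3), from 5564, 4789 and 6687 fragments. The ratio was 1.13 for R/N (1.09 to 1.17), 1.31 for R/P (1.27 to 1.36) and 0.860 for P/N (0.828 to 0.894), each larger than counting error and well under 2-fold. Sirpa, its receptor, was at 4.81, 5.27 and 5.34.

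Cd47 lay on 6 transcripts (chromosome 16, 49854958 to 49915010, plus strand), and these did not move alike. The RefSeq transcript NM_010581 had an FPKM of 20.6, 20.5 and 32.2, with ratios of 1.56 for R/N and 1.57 for R/P. The main assembled transcript, which lacks an exon of 63 bases, had 25.2, 20.9 and 23.9, with ratios of 0.952 and 1.14. That exon lies at 49869018 to 49869080 and keeps the reading frame. It is shown in capitals between 24 coding bases of its neighbours (transcript Cd47-201 of GENCODE, GRCm38), as the piece by which the main transcripts differ.

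Cd47 exon: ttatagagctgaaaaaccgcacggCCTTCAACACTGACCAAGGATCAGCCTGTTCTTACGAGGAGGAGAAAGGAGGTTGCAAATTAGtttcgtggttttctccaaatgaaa

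Transcripts with the exon made up 55.1%, 57.5% and 59.4% of the level of Cd47. Coverage of the exon itself, set against its neighbours, was 31.4%, 34.2% and 30.2%, and so did not follow that order. The exons that all 6 transcripts share had 1.14 to 1.24 times the coverage in R/N, not scaled to depth. These run close to the ratio of the gene sum, and the ratio of the RefSeq transcript alone does not.

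**Figure D4:**
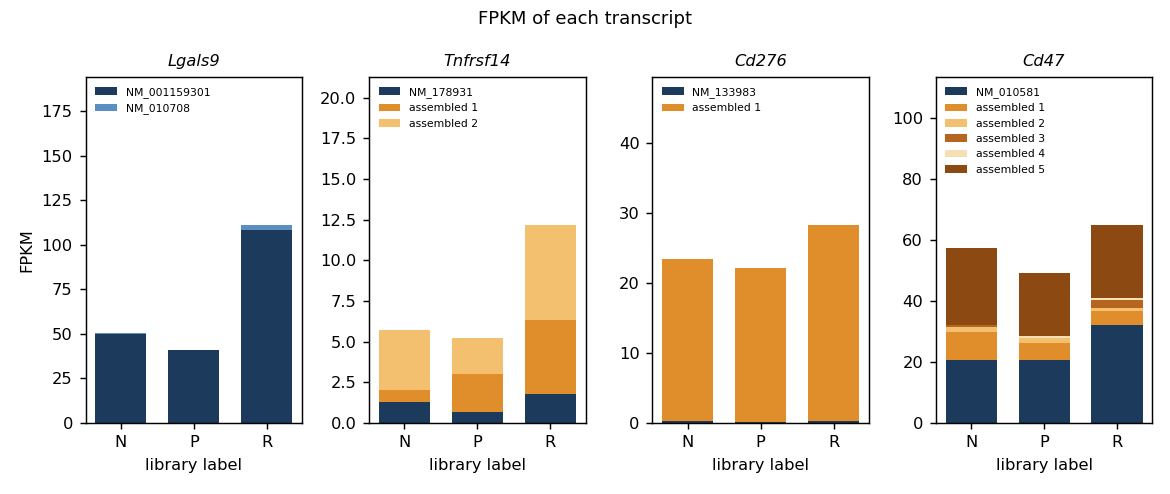
FPKM (vertical, stacked) of each transcript of Lgals9, Tnfrsf14, Cd276 and Cd47 in the 3 libraries (horizontal, by label), RefSeq transcripts in blue and transcripts assembled from the reads in orange and brown. Each bar is 1 library with no replicate; Cd276 rests almost wholly on 1 assembled transcript, and the RefSeq part of Cd47 is 20.6, 20.5 and 32.2.

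The order of the levels of the ligands was the same in the libraries labelled N and P for the measured genes, with Cd47 first, then Lgals9, Cd276, Pvr, Tnfrsf14 and Cd274. FPKM is a level per length, so genes can be ranked on it. In the library labelled R the order was Lgals9, Cd47, Cd276, Cd274, Pvr and Tnfrsf14. Cd274 thus passed from the last of the 6 to a level next to that of Cd276, and the intervals of these genes (26.8 to 29.3 and 27.1 to 29.4) overlapped there. All other neighbours in each order lay apart by more than counting error.

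A search for motifs was run on the promoter windows that RefSeq gives for 7 of the 9 genes on GRCm38.p6, 250 bases before to 50 after the start, with 8 windows in all. Both strands were read. GAS, the element of genes induced by interferon gamma, was searched as TTCNNNGAA and was in none of the 8 windows and in 8.30% of 32851 promoters of the same length. The core of ISRE, the element of interferon stimulated genes, was searched as GAAANNGAAA. It was in 2 windows, those of Lgals9 and Tnfrsf14, and in 3.44% of all promoters. GGGANNTTCC, a kappa B motif, was in none and in 1.47% of all. Cd274 held none of these letters in its window, and a match or its absence is a description of the window only. The matches are shown in capitals within 30 bases in the direction of the gene, where they read as the reverse complement of the motif, because these windows belong to 2 of the 3 genes that lay at least 2-fold apart.

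Lgals9, 55 bases before the start (chr11:78984960-78984989): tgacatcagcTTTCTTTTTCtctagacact
Lgals9, 15 bases after the start (chr11:78984890-78984919): atagctgtggTTTCTGTTTCctagctcagc
Tnfrsf14, 64 bases before the start (chr4:154928122-154928151): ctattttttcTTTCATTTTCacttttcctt

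The start that the promoter table gives for Tnfrsf14 lies 48 bases inside the first exon of the transcripts in the files. The match lies before that exon in the files and inside an exon of GENCODE. The second match of Lgals9 is in its first exon.

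Interferon gamma signalling was the pathway list with the most genes at least 2-fold higher in R, among lists of unequal length. Of 14 listed genes 13 were measured, and 6 were at least 2-fold higher for R/N and 6 for R/P, with none lower. Of all genes, 3.09% were as much higher for R/N, 4.16% for R/P and 2.69% above both, which also holds for the lists below. Stat2 and Irf9, the latter sharing its locus with another symbol, were among the 6 in both comparisons. The median log2 ratio was 0.47 and 0.80. Irf1, a transcription factor that interferons induce, was the most abundant at 79.4, 53.4 and 275.0. Irf8 was at 7.58, 4.62 and 40.9. Socs1, a feedback inhibitor of the pathway, was at 9.82, 3.54 and 43.5, with ratios of 4.43 for R/N (3.93 to 5.00) and 12.3 for R/P (10.2 to 14.9), and was the 1 gene of the list at least 2-fold lower for P/N. The receptor chains and kinases were under 2-fold apart in each comparison, and 2 of the 4 were lowest in P by more than counting error. Ifngr1 was at 23.2, 22.1 and 20.7 and Jak1 at 23.9, 24.7 and 24.6. Jak2 was lowest in P, at 45.2, 25.3 and 44.0, which gave 1.74 for R/P (1.65 to 1.83) and 0.974 for R/N (0.933 to 1.02). Ifngr2 was also lowest in P, at 30.8, 19.7 and 26.2, which gave 1.33 for R/P (1.21 to 1.46) and 0.850 for R/N (0.781 to 0.926). Ifng itself was at 0 in all libraries.

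Relatives of the ligands outside the 9 did not move as a group. Of 8 other B7 and butyrophilin-like genes, 3 were measured and 1 was at least 2-fold higher for R/N. That gene was Icosl, the ligand of ICOS, at 0.729, 1.13 and 1.84. Vsir (4632428N05Rik in the files), which encodes the inhibitory B7 relative VISTA, was lowest in R. Its FPKM was 15.3, 17.9 and 9.83, with ratios of 0.642 for R/N (0.589 to 0.699) and 0.550 for R/P (0.507 to 0.598). Vtcn1 (B7-H4) was at 1.73, 2.32 and 1.77.

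Nectins and nectin-like molecules are the family to which Pvr belongs. Of 8 listed genes 5 were measured and none was 2-fold apart in any comparison. The background shares of 4.97% for R/N, 5.85% for R/P and 2.07% for P/N would also give that count. The median log2 ratios were -0.14 for R/N and -0.34 for R/P. Nectin2, a further ligand of TIGIT, was the most abundant at 39.5, 35.5 and 38.2. Nectin1 was at 12.1, 11.98 and 7.62, with ratios of 0.629 for R/N (0.573 to 0.692) and 0.636 for R/P (0.579 to 0.699). Nectin3 was at 11.3, 13.3 and 7.68, and Nectin4 at 9.49, 10.9 and 8.62. Pvr was thus higher in R, where Nectin1 and Nectin3 were lower.

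Among TNF family ligands and Cd40, 3 of 10 were measured, and 1 was at least 2-fold higher in R than in N and in P. This was Tnfsf10, which encodes the death ligand TRAIL, at 2.41, 1.79 and 20.0, with ratios of 8.29 for R/N (7.19 to 9.59) and 11.2 for R/P (9.51 to 13.3). Tnfsf9, the ligand of the costimulatory receptor 4-1BB, was lower in R, at 31.0, 30.2 and 17.9. Cd40 was at 1.54, 1.55 and 2.09. Tnfsf14, which encodes LIGHT, the TNF family ligand of HVEM, was at 0, 0 and 0.0278.

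Other inhibitory ligands split in the same way. Of 11 listed 6 were measured, and 2 of them were at least 2-fold higher in R than in both other libraries. H2-T23 encodes Qa-1, the ligand of the NK cell receptor NKG2A, and was at 335.9, 273.9 and 919.9. Clec2d, a ligand of inhibitory NKR-P1 receptors, was at 4.66, 3.42 and 18.7. Lgals1, the most abundant gene of the list, was at 1573, 1625 and 1490, and Lgals3 at 219.0, 168.6 and 172.9, so these 2 galectins were not higher in R than in N. Cd24a was at 93.6, 85.3 and 96.5.

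Genes that handle the proteins of the ligands come next. All 13 listed were measured and none was 2-fold apart in any comparison, a count that the small background shares would also give, with medians of 0.051 for R/N and 0.055 for R/P. Cmtm6, which keeps PD-L1 at the cell surface, was at 39.2, 37.5 and 41.1, and Cmtm4 at 20.8, 22.8 and 16.5. Cop1 (Rfwd2 in the files), a ubiquitin ligase, was highest in P by FPKM, at 12.03, 21.4 and 13.0. The ratio was 1.78 for P/N (1.62 to 1.95) and 0.608 for R/P (0.555 to 0.666). Its fragments, at 872, 983 and 916, lay much closer together. The FPKM ratios thus depend on how reads were assigned to transcripts, which the intervals do not cover, and no difference is read from them. Adam10, a sheddase, was at 38.0, 32.2 and 39.4. Qpctl, which modifies CD47 for SIRPα binding, was at 5.38, 5.49 and 6.58. Stt3a, of the complex for N-glycosylation, was the highest at 134.3, 128.6 and 131.1.

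Of the signals that bear on engulfment beside Cd47, 7 of 9 were measured and B2m alone was at least 2-fold higher in R, at 999.7, 887.8 and 2062. B2m is the light chain of MHC class I, which also restrains macrophages. Calr, a signal for engulfment on dying cells, was at 360.3, 290.8 and 455.1 and Lrp1 at 79.4, 109.8 and 81.7. Of 8 NK cell activating ligands 3 were measured, with Ulbp1 at 7.87, 9.91 and 8.17 and Raet1e, which shares its locus with another symbol, at 0.564, 0.736 and 1.04. H60b, at 1.08, 1.47 and 0.638, was the 1 gene at least 2-fold lower for R/P, where 1.69% of all genes were.

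**Figure D5:**
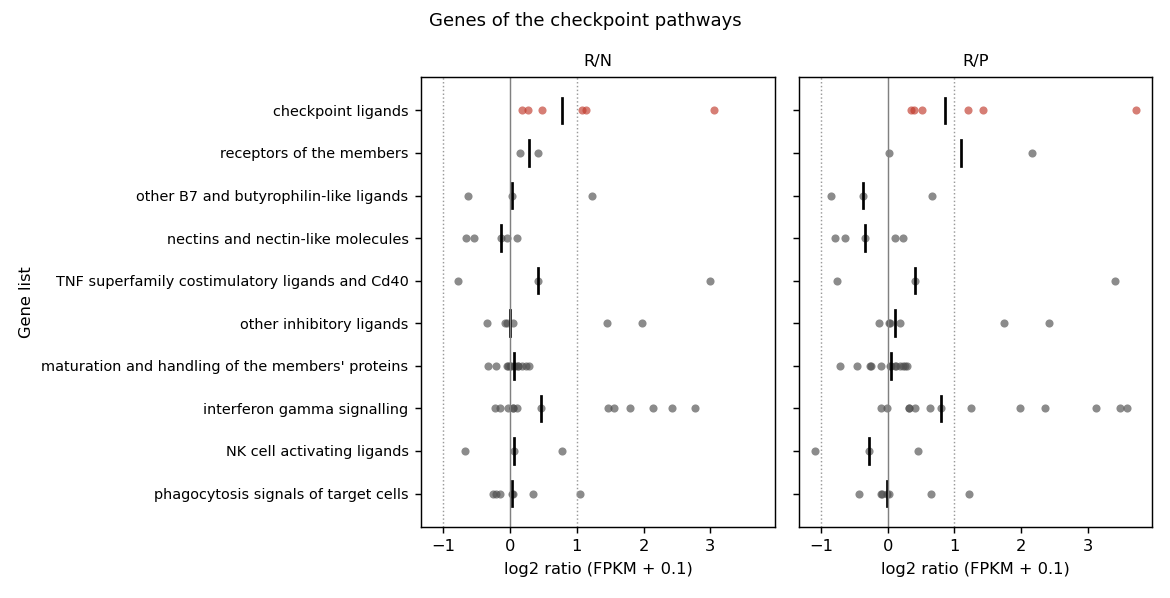
Log2 ratio of FPKM plus 0.1 (horizontal) for R/N and R/P of each gene whose FPKM reached 1 in a compared library, by gene list (vertical). Red points are checkpoint ligands, grey points other genes, black bars list medians and dotted lines 2-fold; the ligands lie above 0 throughout, with medians of 0.78 and 0.86, and the handling genes lie within 2-fold, with medians of 0.051 and 0.055.

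The genes whose pattern lay nearest to each measured ligand were found among 7885 genes whose FPKM reached 5 in any library, by the distance between pairs of log2 ratios (P/N and R/N). Over 3 libraries many genes share any pattern, and likeness is a description. Nearest to Cd274 were Sectm1b at a distance of 0.14, Irgm1, Gbp7, AA467197 and Tnfsf10. Irgm1 had an FPKM of 23.3, 16.3 and 186.7. Gbp7 and AA467197 share a locus with another symbol in the files, which leaves their values less certain. Nearest to Lgals9 were Rab19, Serpinb9, Psme1, Adamts14 and Slfn2, with distances of 0.030 to 0.088, and Psme1 was at 135.5, 111.9 and 288.0. Nearest to Tnfrsf14 were Platr22, Pnp, Nubp1, Tmem229b and Cx3cl1, and Cx3cl1 was at 89.6, 80.8 and 183.8. Cd274 had the least crowded surroundings, since its nearest gene lay further off than the fifth nearest of any other measured ligand. For Pvr these were Psma2, Nol9, Gsto1, Tuba8 and Ftsj3, for Cd276 Actr2, Exosc10, Trak2, Xrcc6 and Cgrrf1, and for Cd47 B4galnt1, Rpp21, Ifrd1, Slc50a1 and Lnx1, all within a distance of 0.019.

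Leukocyte RNA moved between the libraries, and its values stand here beside those of the ligands. The summed FPKM of 12 pan-leukocyte markers was 41.9, 42.7 and 48.6, of which Itgb2 made up 26.3, 35.9 and 34.1. Ptprc, which encodes CD45, was at 0.201, 0 and 0.305. Tyrobp was at 0.964, 0 and 1.42, Cd52 at 1.61, 0 and 1.35 and Spi1 at 1.21, 0.0415 and 1.29. The summed FPKM of 11 neutrophil markers was 37.8, 13.1 and 22.9, with S100a9 at 5.74, 0 and 2.03, Ngp at 2.87, 0 and 0.856, Mpo at 0.995, 0 and 1.61 and Ltf at 16.1, 12.3 and 11.3. Endothelial and fibroblast markers summed to 14.3, 17.4 and 18.7 over 9 genes, led by Pdgfra at 10.3, 11.5 and 13.3, with Col1a1 at 1.69, 3.25 and 1.91 and Dcn at 2.09, 2.27 and 3.03. Krt18 was at 779.2, 653.0 and 528.3, Krt19 at 126.4, 111.3 and 72.7 and Krt14 at 32.3, 33.6 and 14.0. Some single markers moved far between N and R, in either direction, with R/N at 35.1 for Mpeg1, 9.41 for Ly6c2 and 0.225 for Lyz2. Over whole lists the median log2 ratio for R/N was 0.079 for pan-leukocyte and 0.92 for dendritic cell markers. It was -0.10 for macrophage and monocyte markers and -0.55 for neutrophil markers, each over the measured genes. The medians for R/P were larger in 3 of these lists, at 2.98 for pan-leukocyte, 2.23 for macrophage and monocyte and 3.14 for neutrophil markers. For dendritic cell markers the R/P median was 0.83. Cd274 had a log2 ratio of 3.06 for R/N and 3.73 for R/P. The leukocyte markers that reached an FPKM of 1 numbered 19, 10 and 20, where Cd274 was at 3.27, 2.02 and 28.0. The part of leukocyte RNA in the values of the ligands was not tested, for R/N and R/P as for P/N.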

How the data were processed

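Libraries of 4T1 CSCsp RNA, 3 in all, were grouped by their labels. HISAT2 (2.2.0) was the authors' aligner. StringTie was their quantifier, version 2.1.3 per the submitters' processing notes but 2.1.5 per the file headers. The files deposited by the authors list coverage, FPKM and TPM for 34970 RefSeq transcripts and 12520 assembled from the reads. The processing notes name mm9, yet 99.4% of 23147 symbols overlap their gene on GRCm38.p6, as do 9 of 9 ligands, so positions are given as GRCm38.

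For each gene, FPKM was added up across RefSeq transcripts and the 9386 assembled transcripts of the same StringTie locus. The other 3134 assembled transcripts were left out. No ligand shares its locus with another gene. Fragments were taken from coverage at 300 bases per read pair, with aligned bases worked out from coverage and FPKM, and 3 fragments served as the floor. Log2 ratios are of FPKM plus 0.1, which understates differences of low genes. Genes were counted as apart at 2-fold or more where the FPKM of 1 of the 2 libraries reached 1. With 1 library per condition no test was run. Ratio intervals were taken on fragments and scaled to the ratio of FPKM, so they leave out error in assigning reads to transcripts. Counts, and ratio intervals before that scaling, were tried on simulated Poisson counts. That is a check of the code only, since the simulation holds no other error. How reads were filtered is not given in the sources.

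The ligands and gene lists were chosen with earlier results of these data known. Of 195 listed symbols 187 were found as listed, 6 under an older symbol by RefSeq synonyms (GRCm38.p6), and 2 were not matched. Named were every ligand, from each list up to 3 genes with the largest ratio for R and the most abundant one, and the 5 nearest patterns. A gene that this rule names is not reported here. Other genes of a list were named after their values were seen. Sequences came from GENCODE vM21 and RefSeq tables. No protein sequence was used here. As alternatives, TPM, other pseudocounts (1 and 0.01), a rescaling on the median of 7227 genes, the highest transcript or RefSeq transcripts only, no filter or one of 5 FPKM, N and P exchanged, and leaving out Pdcd1lg2, Cd80 and Cd86 were tried. SciPy 1.17.1, pandas 2.3.3, NumPy 2.4.6 and Matplotlib 3.10.9 were run in Python 3.11.15.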

Additional observations from a re-analysis of the deposited data

How the results depend on the processing

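Cd274 and Lgals9 were at least 2-fold above both other libraries in R under each of the alternatives run. For these genes the exchange of N and P, the filters and leaving out Pdcd1lg2, Cd80 and Cd86 could not change that result. Tnfrsf14 was under 2-fold for R/N with a pseudocount of 1, with the highest transcript only (log2 ratio 0.65) or with RefSeq transcripts only (0.43). That leaves 2 genes in place of 3. None of the ligands was 2-fold lower in R than in both others under any alternative. Without a filter on low values, which adds genes of 9 fragments or fewer, the median log2 ratio of the ligands was 0.27 for R/N and 0.51 for R/P, 2 were at least 2-fold lower for P/N and 1 for R/N. With RefSeq transcripts only the median for R/P was 1.30, since Cd276 then drops out. With N and P exchanged the median for P/N was 0.17, Cd80 had 1.34 and Pdcd1lg2 1.19 for P/N, and Pdcd1lg2 had 0.0076 for R/N. These signs follow from the exchange itself and rest on few fragments for both genes. Rescaling the libraries shifted ratios by 0.048 or less on the log2 scale. No paired analysis was possible because each condition has a single library. Depth limits Pdcd1lg2, Cd80 and Cd86, and a lack of replicates limits every comparison.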
